A study of Mus musculus with 6 samples.

Results

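Antiviral interferon-stimulated genes were followed in small intestine tumors of mice treated with vehicle or with PEGPH20, a pegylated human hyaluronidase that degrades the matrix polysaccharide hyaluronan. The members are 36 genes chosen by mouse symbol from textbook interferon biology, out of 21878 genes in the deposited table, and all 36 were found there. All 6 tumors came from mice of the genotype Prkcif/fPrkczf/f;Villin-Cre, in which floxed alleles of both atypical protein kinase C genes are targeted by a Cre recombinase that the villin promoter drives in intestinal epithelium, so stromal and immune cells of the tumors are not themselves targeted. Treatment began at 11 weeks of age, with PEGPH20 at 0.0375 mg/kg or vehicle given 2 times per week for 3 weeks, and tumors came from animals 14 weeks old. There were 3 libraries per group, numbered 1 to 3 for vehicle and 4 to 6 for PEGPH20. Neither untreated mice nor mice with intact Prkci and Prkcz are among these samples.

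Interferons are secreted proteins that cells release on sensing viral or misplaced nucleic acid. Type I and type III interferons act through their receptors and the kinases JAK1 and TYK2 on a complex that contains STAT2 and IRF9 and binds the interferon-stimulated response element (ISRE) in promoters. Interferon gamma acts through the gamma-activated site (GAS), with Irf1 as a classical target. The induced genes encode sensors of viral RNA, proteins that block translation or degrade RNA, proteins that restrict viruses at membranes, and the ubiquitin-like modifier ISG15. In the intestine, epithelium responds mainly to type III interferon, and immune and stromal cells to type I.

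The promoter stretches below are shown because they carry the motifs through which these genes are known to respond, and because their genes have different patterns here: Ifit1, Ifit1bl2, Ifit1bl1, Isg15 and Irf1 were higher in PEGPH20 tumors at an unadjusted p under 0.05, and Rsad2, which carries the ISRE core, was not. They are RefSeq sequences on GRCm38.p6, each 5′ to 3′ on the gene's own strand and ending at the base before the RefSeq transcript start. Capitals mark matches to the ISRE core GAAANNGAAA on either strand, or in Irf1 to the GAS core TTCNNNGAA. The first stretch, chr19:34640744-34640888 on the plus strand, is the 145 bases between the start of Ifit1 and that of Ifit1bl2, which is transcribed in the opposite direction, so both genes share its 2 matches. The others span 150 bases each: chr19:34601969-34602118 (minus strand) for Ifit1bl1, chr4:156200819-156200968 (minus) for Isg15, chr12:26456453-26456602 (minus) for Rsad2 and chr11:53769864-53770013 (plus) for Irf1. The capitals of Isg15 hold 3 overlapping matches.
Ifit1 and Ifit1bl2: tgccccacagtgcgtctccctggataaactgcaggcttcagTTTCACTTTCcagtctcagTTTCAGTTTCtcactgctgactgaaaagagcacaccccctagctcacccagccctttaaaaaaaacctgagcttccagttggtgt
Ifit1bl1: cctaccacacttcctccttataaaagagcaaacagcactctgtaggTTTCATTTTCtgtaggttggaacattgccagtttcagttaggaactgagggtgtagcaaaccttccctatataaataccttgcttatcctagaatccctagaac
Isg15: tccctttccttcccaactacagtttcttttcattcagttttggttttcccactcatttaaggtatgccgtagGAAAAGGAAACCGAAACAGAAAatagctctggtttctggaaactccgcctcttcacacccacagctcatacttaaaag
Rsad2: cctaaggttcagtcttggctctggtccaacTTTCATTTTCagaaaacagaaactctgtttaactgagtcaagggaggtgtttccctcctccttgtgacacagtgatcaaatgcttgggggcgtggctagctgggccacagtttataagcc
Irf1: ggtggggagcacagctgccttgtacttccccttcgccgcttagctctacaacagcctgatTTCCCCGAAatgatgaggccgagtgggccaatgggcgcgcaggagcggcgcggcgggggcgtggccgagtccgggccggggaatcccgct

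Windows from 250 bases before to 50 after a transcript start were found for 27 of the 36 members. The ISRE core was in a window of 14 of these 27 genes (51.9%), against 3.99% of the 27025 genes in the same promoter table. The GAS core was in 8 of 27 (29.6%), against 9.55% of all genes. Members were chosen as interferon-stimulated genes, so a high share was built into the choice. Within the tested members the motif did not sort those that were higher from those that were not. Of 11 with an ISRE core 8 were higher and 3 lower in PEGPH20 tumors, with log2 differences from -0.54 to 1.58 (median 0.40). Of 13 without one 11 were higher and 2 lower, from -0.13 to 1.19 (median 0.52). These are descriptions of a short window.

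Libraries held 2075588 to 2832876 reads, so that 1 read was worth 0.353 to 0.482 counts per 1000000 reads (CPM). PEGPH20 replicate 5 stood apart from the rest, with correlations across genes of 0.937 to 0.958 with the other 5 libraries, on log2(CPM + 1), against 0.971 to 0.984 among those 5. The log2 differences of the tested members are plotted with and without this library. The text gives both values for some genes only. The 8 markers of intestinal epithelium, among them Epcam, Vil1 and Cdx2, summed to 6142 to 7911 CPM, so that markers of the labelled tissue were present in every library. They did not move together, with 3 higher and 5 lower in PEGPH20 tumors. Every PEGPH20 library lay above every vehicle library in Epcam, as in 9.71% of all genes. In Krt8 and Krt18 every one lay below, as in 17.6%. Krt18 was at 491, 523 and 643 CPM in vehicle and at 389, 72.9 and 386 CPM in PEGPH20 tumors. Whether the tumors were taken from different animals is not stated in the labels, and the p-values reflect only how these samples vary, which may be technical.

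Antiviral genes were mostly at higher levels in PEGPH20 tumors, but none passed the test with all libraries. Of the 36 members 29 had enough reads to test (a minimum count of 10 in 3 libraries, by filterByExpr). Of these 24 were higher and 5 lower, with a median log2 difference of 0.52 on log2(CPM + 1), against -0.09 over all 11389 genes tested. Over all genes 40.2% of differences were above 0 and 59.8% below. None passed an adjusted p of 0.05 in limma with Benjamini-Hochberg adjustment over all genes, where 0.0263% of genes were called higher and 0.0527% lower. At an unadjusted p under 0.05, 12 members were higher, which is 41.4% of those tested against 6.52% of all genes, and 1 was lower (3.45% against 11.5%). Without vehicle replicate 1, 6 were higher (20.7%), against 4.43% of all genes in that fit. The count of members past the adjusted threshold was 0 in edgeR as well, which called 4 genes higher and 6 lower over all genes. It was 4 in DESeq2 (Ifit1, Ifit1bl1, Ifit1bl2 and Parp14), which called 128 genes higher and 149 lower. In limma-voom with sample weights it was 1 (Ifit1bl2), with 108 genes called higher and 161 lower. The members were chosen with results of these data known, so their counts are descriptions.

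In 11 of the 29 tested members every PEGPH20 library lay above every vehicle library, against 9.71% of all genes, and in 2 every PEGPH20 library lay below, against 17.6%. The 11 were Irf1, Ifit1bl1, Ifit1bl2, Mx1, Bst2, Cmpk2, Rtp4, Parp9, Parp14, Dtx3l and Ifi35, and the 2 were Ifitm3 and Eif2ak2. Without PEGPH20 replicate 5, 12 members (41.4%) lay above in this way, against 15.8% of all genes. Without PEGPH20 replicate 4 it was 20 members (69%), against 12.8% of all genes. Replicate 4 had the members' levels nearest to vehicle, so a rise on leaving it out was built in, and no conclusion is drawn from it. In Bst2 and Rtp4 the lowest treated library exceeded the highest control by less than 1 read. Mx1 reached the filter through PEGPH20 libraries alone, so its inclusion required a difference.

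**Figure D1:**
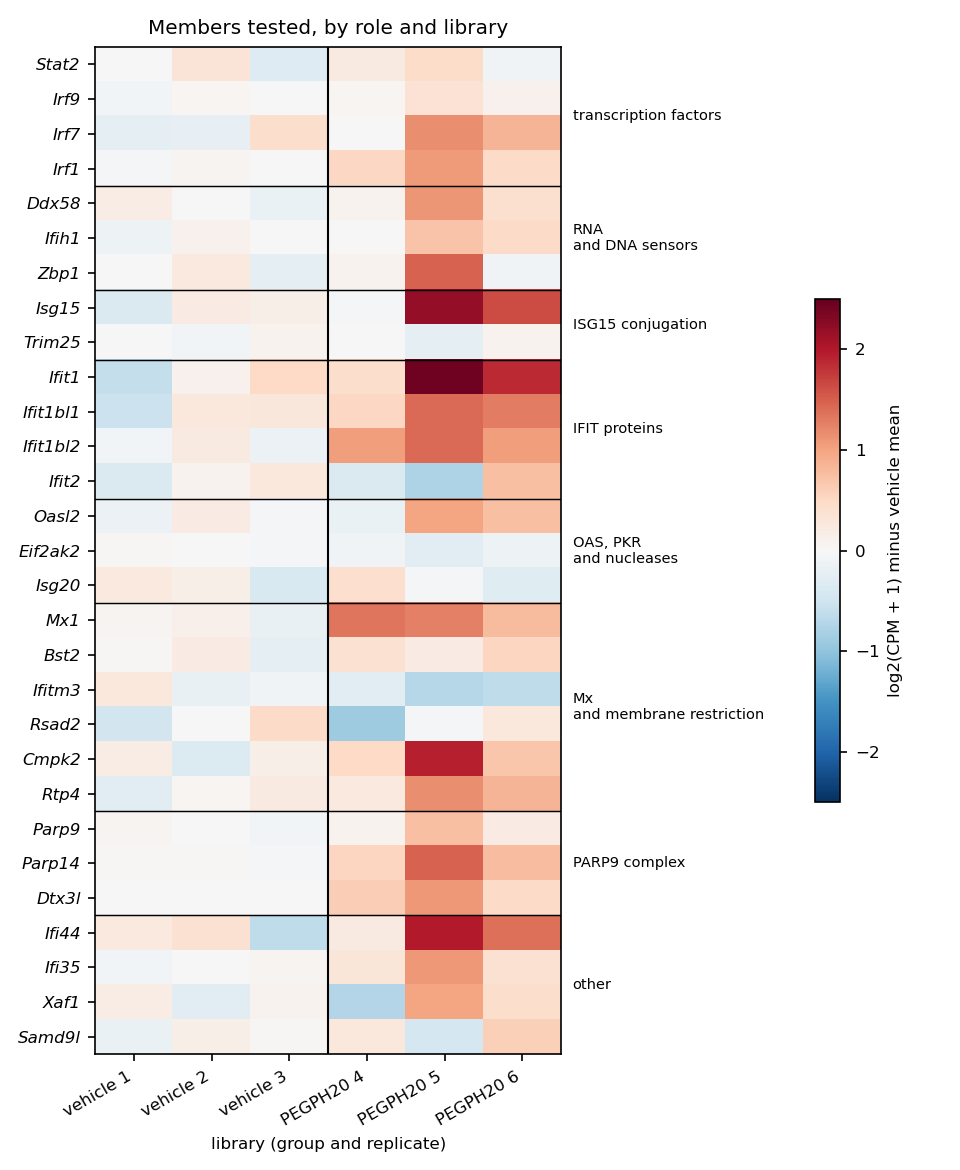
Each row is 1 of the 29 tested members, grouped by role, and each column 1 library. Color is log2(CPM + 1) minus the gene's vehicle mean. PEGPH20 replicates 5 and 6 hold most of the strong red cells, and in 20 of 29 members replicate 5 is the highest library.

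Among the transcription factors, Irf1, which activates interferon and antigen presentation genes, was at 112, 122 and 115 CPM in vehicle replicates 1 to 3 and at 166, 244 and 162 CPM in PEGPH20 replicates 4 to 6. All 3 treated tumors were above all 3 controls. The log2 difference was 0.68 (SE 0.18, limma adjusted p = 0.157), and without PEGPH20 replicate 5 Irf1 rose by 0.50 (SE 0.11, adjusted p = 0.0412). Irf7, the factor that amplifies type I interferon production, was at 12.5, 12.6 and 20.3 CPM in vehicle and at 14.8, 34.2 and 27.3 CPM in PEGPH20 tumors. The groups overlapped, because PEGPH20 replicate 4 lay within the vehicle range. Stat2 and Irf9, which encode subunits of the ISRE-binding complex, differed little. Stat2 was at 22.2, 28.3 and 17.6 against 26.1, 30.8 and 20.9 CPM (log2 difference 0.20, limma adjusted p = 0.668), and Irf9 at 39.0, 42.4 and 40.9 against 42.0, 52.5 and 44.1 CPM (0.17, 0.553).

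The IFIT proteins bind foreign RNA and stop its translation, and their genes lie side by side on chromosome 19. Ifit1bl2 had the smallest p-value of the members. It was at 83.8, 104 and 79.5 CPM in vehicle and at 185, 236 and 184 CPM in PEGPH20 tumors, and its lowest treated value was well above its highest control. The log2 difference was 1.17 (SE 0.16, limma adjusted p = 0.0841), and without PEGPH20 replicate 5 the gene rose by 1.05 (SE 0.13, adjusted p = 0.00382). On GRCm38 it spans chromosome 19 from 34617049 to 34640743 (ENSMUSG00000067297, minus strand), next to Ifit1 at 34640871 to 34650009 (ENSMUSG00000034459, plus strand). Ifit1, with which it shares the promoter stretch printed first, was at 9.15, 15.7 and 20.6 CPM in vehicle and at 19.8, 82.5 and 55.5 CPM in PEGPH20 tumors. Here the groups overlapped by a single library, since PEGPH20 replicate 4 was below vehicle replicate 3. Its log2 difference was 1.58 (SE 0.51, adjusted p = 0.191) and, without replicate 5, 1.15 (0.170).

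Ifit1bl1 (34592891 to 34601956 on the same chromosome, minus strand) was at 42.9, 75.3 and 76.1 CPM in vehicle and at 90.0, 169 and 153 CPM in PEGPH20 tumors. All treated values were again above all controls, with a log2 difference of 1.07 (SE 0.30, limma adjusted p = 0.172). The other family members did not share this pattern. Ifit2, at 7.25 ± 1.78 CPM in controls and 7.26 ± 4.81 CPM after PEGPH20 (SD, n = 3 each), had a log2 difference of -0.13 that was 0.20 without replicate 5 and 0.04 in edgeR. Ifit3 was under the filter, with 22 vehicle and 29 PEGPH20 reads in total. Near-identical copies could split reads among these genes, and the overlap at the 3′ ends was therefore counted. Of the 426 75-base stretches in the last 500 bases of Ifit1bl1 transcripts 6 (1.41%) occur in Ifit1bl2, and 0 of those of Ifit1 or Ifit1bl2 occur in another gene. In Ifit3 9.86% occur in Ifit3b.

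**Figure D2:**
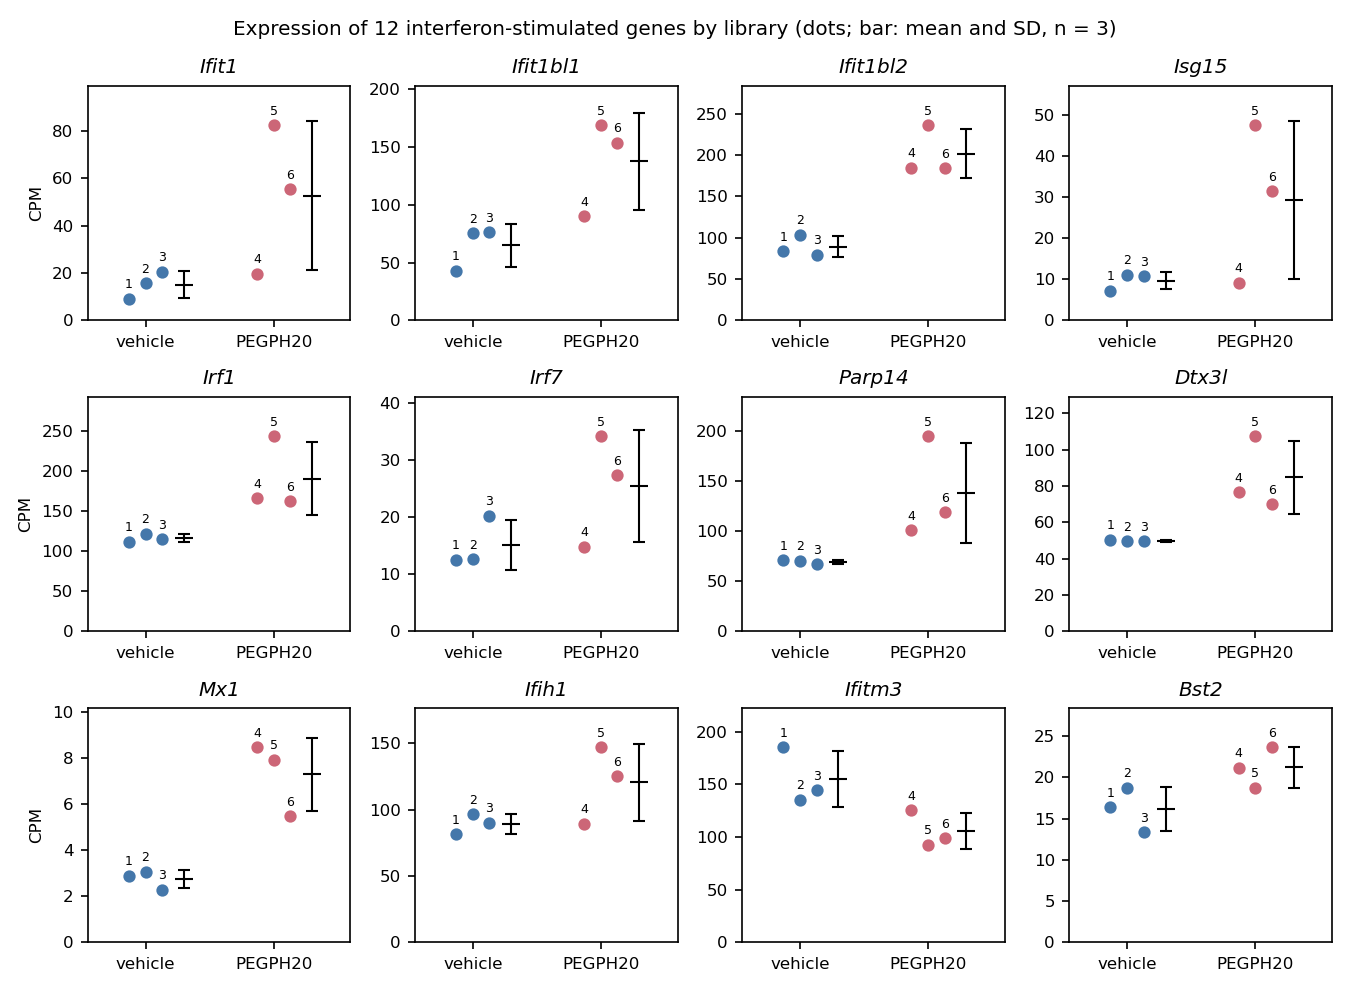
Dots are CPM in each library, with the replicate number above, for 12 members with vehicle in blue and PEGPH20 in red. The black bar is the mean with SD (n = 3). Ifit1bl2, Irf1, Parp14, Dtx3l and Mx1 separate the groups, while in Ifit1, Isg15, Irf7 and Ifih1 PEGPH20 replicate 4 sits with the vehicle libraries and in Ifitm3 the order is the opposite.

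Isg15 encodes a ubiquitin-like protein that is attached to other proteins during infection. It was at 7.23, 11.1 and 10.7 CPM in vehicle and at 9.18, 47.5 and 31.4 CPM in PEGPH20 tumors. PEGPH20 replicates 5 and 6 were above every control and replicate 4 was not (log2 difference 1.26, SE 0.53, limma adjusted p = 0.270). Usp18, which removes ISG15 and dampens interferon receptor signalling, was also higher in PEGPH20 replicates 5 and 6 than in every control and not in replicate 4, at low counts, with 1.45, 2.29 and 2.68 CPM in controls and 1.76, 5.42 and 6.83 CPM after PEGPH20, and was not tested. Trim25, a ubiquitin ligase that activates RIG-I, was at 105 ± 5.79 and 102 ± 11.7 CPM (SD, n = 3 each), a log2 difference of -0.05 that was 0.05 under TMM and upper quartile scaling and 0.06 under RLE scaling.

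PARP9 and DTX3L form an ADP-ribosylation and ubiquitin ligase complex that promotes interferon signalling, and PARP14 is a related ADP-ribosyltransferase. Their genes lie close together on chromosome 16 and their vehicle values were tightly grouped. Parp14 (35832874 to 35871544, minus strand, ENSMUSG00000034422) was at 70.8, 70.3 and 66.9 CPM in vehicle and at 101, 195 and 119 CPM in PEGPH20 tumors. Its log2 difference was 0.92 (SE 0.24, limma adjusted p = 0.157), and without PEGPH20 replicate 5 it rose by 0.65 (SE 0.13, adjusted p = 0.0263). Dtx3l (35926511 to 35939151, minus strand) was at 50.6, 49.7 and 49.7 CPM and at 76.6, 108 and 70.1 CPM. The log2 difference of 0.72 had an adjusted p of 0.155, and of 0.0532 without replicate 5 (limma) or 0.0339 without it in edgeR. Parp9 was at 62.7 ± 2.96 and 82.1 ± 21.5 CPM (SD, n = 3 each; log2 difference 0.35, adjusted p = 0.358). Annotated exons of Parp9 and Dtx3l overlap on opposite strands, and whether counting used strand is not given in the sources used here. Exons of Irf1, Irf7, Ifi35, Eif2ak2, Dhx58 and Usp18 also overlap other genes on the opposite strand. On the same strand, exons of Parp14, Rtp4 and Irf9 overlap those of Gm49730, Gm45338 and Rnf31.

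Of the sensors, Ifih1 encodes MDA5, which detects long double-stranded RNA. It was at 81.4, 96.3 and 90.2 CPM in vehicle and at 89.3, 147 and 125 CPM in PEGPH20 tumors, with PEGPH20 replicate 4 inside the vehicle range (log2 difference 0.40, limma adjusted p = 0.320). Ddx58, which encodes RIG-I, was at 27.2 ± 3.40 and 41.4 ± 15.8 CPM (SD, n = 3 each; 0.53, 0.329). Zbp1, a sensor of Z-form nucleic acid that can trigger necroptosis, was high in 1 library alone, at 38.3 CPM in PEGPH20 replicate 5 against 11.1 to 15.7 CPM in the other 5. Its log2 difference was 0.50 with replicate 5 and 0.00 without it. Dhx58, a regulator of the RIG-I family, had 10 vehicle and 11 PEGPH20 reads in total.

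Mx1 encodes a dynamin-like GTPase that blocks viral nucleocapsids. It was at 2.89, 3.06 and 2.29 CPM in vehicle and at 8.47, 7.92 and 5.46 CPM in PEGPH20 tumors, which is 20 reads in all against 55. Mx1 and Isg20 were the 2 of 29 tested members with their highest value in PEGPH20 replicate 4, as 17.3% of all genes were (log2 difference 1.13, SE 0.27, limma adjusted p = 0.147). Mx2 had 0, 4 and 1 reads in vehicle and 2, 7 and 2 in PEGPH20 libraries, and a count of 0 in vehicle replicate 1 allows up to 1.45 CPM.

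Other restriction factors went in different directions. Cmpk2, a mitochondrial nucleotide kinase, was at 8.67, 5.73 and 8.41 CPM in vehicle and at 10.9, 31.7 and 12.7 CPM in PEGPH20 tumors, with no overlap (log2 difference 1.04, limma adjusted p = 0.231). Rsad2, the neighbour of Cmpk2 on chromosome 12, encodes viperin and did not follow it, at 20.2, 27.9 and 39.8 against 14.8, 27.5 and 34.1 CPM. The log2 difference of Rsad2 was -0.22 (adjusted p = 0.755). Rtp4, a chaperone of receptor trafficking with antiviral activity, was at 10.6, 13.8 and 15.7 against 15.9, 30.8 and 24.6 CPM (0.76, 0.223). Bst2, the tetherin that holds budding virus at the cell surface, was at 16.4, 18.7 and 13.4 against 21.2, 18.8 and 23.7 CPM (0.38, 0.345).

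Ifitm3, which blocks viral entry at endosomal membranes, went against the list. It was at 185, 135 and 144 CPM in vehicle and at 126, 92.9 and 99.2 CPM in PEGPH20 tumors, so that every treated value was below every control (log2 difference -0.54, SE 0.18, limma adjusted p = 0.191). Its relatives outside the members were lower too. Ifitm1 was at 48.2, 39.0 and 50.1 against 27.2, 7.50 and 21.4 CPM and, without PEGPH20 replicate 5, fell by 0.89 on the log2 scale (adjusted p = 0.0292). Ifitm2 was at 68.1 ± 14.9 and 42.1 ± 15.0 CPM (SD, n = 3 each; log2 difference -0.71, adjusted p = 0.231). Markers of fibroblasts and endothelium moved with these 3 genes. The 5 fibroblast markers summed to 2942 to 3021 CPM in vehicle and to 578 to 1585 CPM in PEGPH20 tumors, and the 5 endothelial markers to 243 to 259 and 88.4 to 144 CPM. In all 5 markers of each list every PEGPH20 library lay below every vehicle library, as in 17.6% of all genes. Their part in the lower Ifitm values was not tested, and in bulk tumors fewer cells of a type and less RNA per cell cannot be told apart.

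The oligoadenylate synthetases make the messenger that switches on RNase L, and PKR, encoded by Eif2ak2, stops translation on double-stranded RNA. Most members of this group had few reads. Oas1a had 5 vehicle and 9 PEGPH20 reads in total, Oas2 had 4 and 10, and Oas3 had 14 and 49, the last at 2.41, 1.53 and 1.91 against 3.18, 12.1 and 5.01 CPM. In Oas1a 46.0% of the 75-base stretches at the 3′ end also occur in Oas1g, so its reads are uncertain. Oasl2, a relative with a ubiquitin-like domain, was at 16.8 ± 2.38 and 25.9 ± 9.97 CPM (SD, n = 3 each; log2 difference 0.52, limma adjusted p = 0.392). Eif2ak2 was at 51.0 ± 1.19 and 45.4 ± 2.92 CPM (-0.17, 0.520), and the exonuclease gene Isg20 at 4.86 ± 1.25 and 4.98 ± 1.57 CPM (0.02, 0.976).

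Of the remaining members Ifi44, an interferon-induced cytoplasmic protein, was at 7.23, 8.03 and 3.44 CPM in vehicle and at 7.06, 26.3 and 16.8 CPM in PEGPH20 tumors, with replicate 4 inside the vehicle range (log2 difference 1.19, limma adjusted p = 0.253). Ifi35, which encodes a partner of NMI, was at 13.5, 14.1 and 14.9 against 17.7, 31.3 and 18.7 CPM (0.59, 0.267), with no overlap. Samd9l, a translation-inhibiting restriction factor, was at 82.4 ± 9.01 and 94.7 ± 32.3 CPM (SD, n = 3 each). It was lowest in PEGPH20 replicate 5, and its log2 difference of 0.14 was 0.43 without that library (adjusted p = 0.149). Xaf1, a proapoptotic interferon target, was at 7.19 ± 1.29 and 9.63 ± 5.57 CPM, with log2 differences of 0.23 and, without replicate 5, -0.15.

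**Figure D3:**
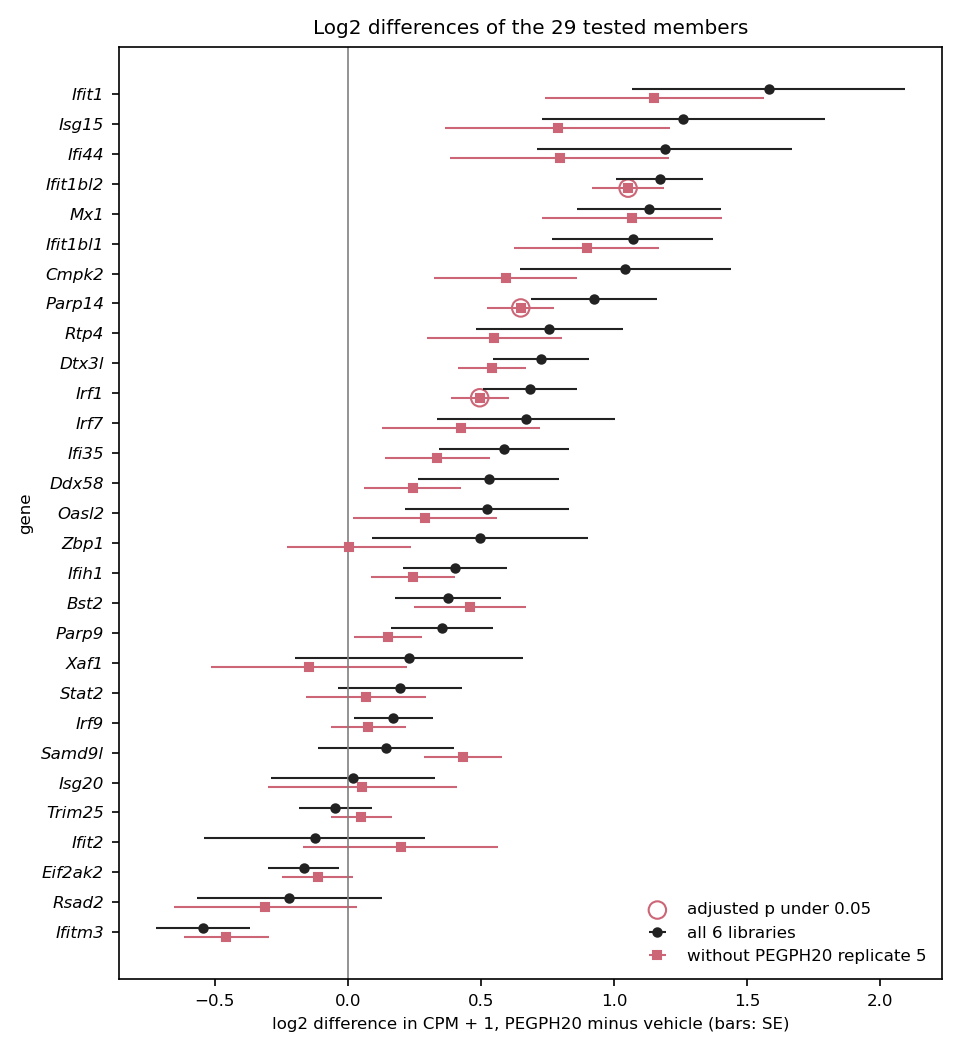
Points are log2 differences in CPM + 1, PEGPH20 minus vehicle, with SE, for the 29 tested members in order of size. Black is the fit to all 6 libraries and red the fit without PEGPH20 replicate 5, and open circles mark an adjusted p under 0.05, which Irf1, Ifit1bl2 and Parp14 reached without that library.

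PEGPH20 replicate 5 carried much of the size and also of the spread. It was the highest library in 20 of the 29 tested members (69%), where it was highest in 18.4% of all genes and lowest in 45.3%. Relative to the vehicle mean, the median tested member was 0.22 higher in PEGPH20 replicate 4, 1.06 in replicate 5 and 0.49 in replicate 6 on log2(CPM + 1), where the medians over all genes were 0.02, -0.24 and -0.05. Without replicate 5 the member median was 0.34 and 25 of 29 were above 0, Trim25 and Ifit2 now among them and Xaf1 not, against 48.1% of all genes. At an unadjusted p under 0.05 in limma 8 were then higher (27.6% against 7.66%). Irf1, Ifit1bl2 and Parp14 then passed the adjusted threshold, which is 10.3% of the tested members against 0.948% of all genes called higher, and 0 members were called lower, against 2.03% of genes.

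Markers of other cells moved with the antiviral genes in part. In PEGPH20 replicate 5 the 11 mature enterocyte markers summed to 19022 CPM, against 3599 to 7656 in vehicle and 5812 to 5881 in the other PEGPH20 libraries. The 9 T and NK cell markers summed to 268 CPM in PEGPH20 replicate 5, led by Gzma at 139 and Ccl5 at 62.5 CPM. They summed to 29.4 to 73.7 CPM in vehicle and 46.4 to 50.5 CPM in PEGPH20 replicates 4 and 6. Of the 3 genes of this list that were tested, only Trbc2 had no overlap. It was at 10.1, 6.50 and 5.35 CPM in vehicle and at 11.6, 20.8 and 12.7 CPM in PEGPH20 tumors (log2 difference 0.95, limma adjusted p = 0.194). Without replicate 5 the log2 differences were 0.70 in Trbc2, -0.14 in Gzma and 0.09 in Ccl5. The 7 pan-leukocyte markers summed to 202 to 208 CPM in PEGPH20 libraries against 135 to 146 CPM in vehicle. All 7 had a log2 difference above 0, against 40.2% of all genes. In 5 every PEGPH20 library lay above every vehicle library, against 9.71% of all genes. The groups overlapped in Laptm5 (log2 difference 0.03) and Tyrobp (0.14). Ptprc, which encodes CD45, was at 51.9, 73.8 and 55.1 CPM in PEGPH20 tumors against 38.1, 35.2 and 35.2 CPM in vehicle. The 8 macrophage markers summed to 197 to 216 CPM in controls and 176 to 233 CPM after PEGPH20, with 4 higher and 4 lower. In C1qa and C1qb every PEGPH20 library lay below every vehicle library, as in 17.6% of all genes, with log2 differences of -0.43 and -0.33. The B and plasma cell markers summed to 6263 to 8907 CPM in controls and 8228 to 10800 CPM after PEGPH20. Most of this sum was the immunoglobulin gene Igkc, whose groups overlapped. The plasma cell genes Jchain, at 2002, 1734 and 1674 against 2869, 3389 and 2632 CPM, and Mzb1, at 29.9, 25.2 and 19.9 against 49.8, 38.8 and 36.4 CPM, were higher in every PEGPH20 library. The B cell genes of the same list were not higher. Cd79b had 23 vehicle and 14 PEGPH20 reads in total and Ms4a1 had 4 and 3, and neither was tested. Without PEGPH20 replicate 5 Jchain rose by 0.61 on the log2 scale (limma adjusted p = 0.0233). The 3 plasmacytoid dendritic cell markers measured summed to 31.0 to 31.4 CPM in vehicle and to 42.7, 43.3 and 31.4 CPM in PEGPH20 replicates 4 to 6. Nearly all of this was Bcl11a, whose groups overlapped, while Siglech had 1 read in vehicle and 10 in PEGPH20 libraries and Pacsin1 had 5 and 5. None of the measured markers was at 0 in all libraries. The part of these cells in the antiviral differences was not tested.

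**Figure D4:**
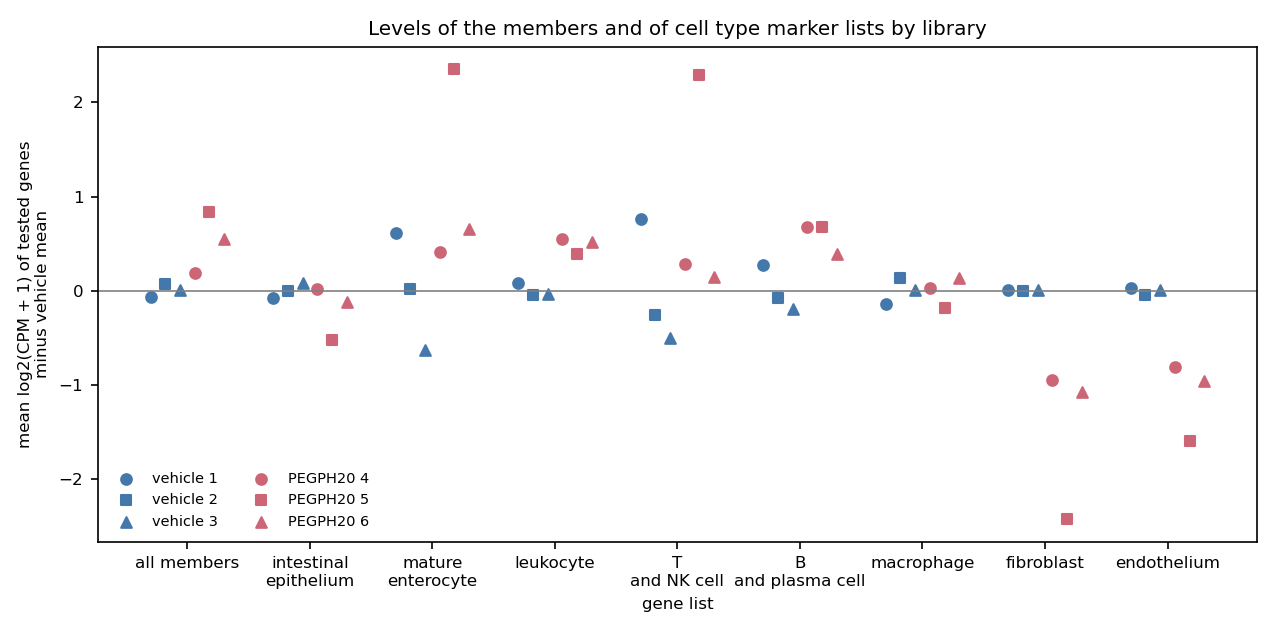
The vertical axis is the mean log2(CPM + 1) of the tested genes of a list in a library minus the vehicle mean, with vehicle in blue, PEGPH20 in red and a symbol per replicate. The members lie 0.18, 0.83 and 0.55 above the vehicle mean in PEGPH20 replicates 4, 5 and 6, mature enterocyte and T and NK cell lists peak in replicate 5, and fibroblast and endothelium lists are below vehicle in all 3.

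Of 10 interferon genes looked for, Ifng had 1 read in vehicle and 1 in PEGPH20 libraries. For the others no row was found by symbol, so no value can be given. All 6 receptor genes were measured and 0 passed the threshold. Il10rb, the shared chain of the type III receptor, was at 80.0, 89.1 and 94.0 CPM in vehicle and at 115, 127 and 99.7 CPM in PEGPH20 tumors, with no overlap (log2 difference 0.37, limma adjusted p = 0.240). Ifnlr1, the specific chain of that receptor, was at 14.6 ± 4.50 and 20.3 ± 2.25 CPM (SD, n = 3 each; 0.49, 0.336). The type I receptor chains Ifnar1 and Ifnar2 had log2 differences of -0.32 and -0.08, and the interferon gamma receptor chains Ifngr1 and Ifngr2 of -0.31 and 0.37.

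Over 56 tested pathway genes outside the members 0 passed the adjusted threshold in limma or edgeR and 3 in DESeq2. DESeq2 called 128 genes higher and 149 lower over all genes. At an unadjusted p under 0.05 in limma 9 were higher and 3 lower, where the shares over all genes were 6.52% and 11.5%. The median log2 difference was 0.19, with 41 genes above 0, where 40.2% of all genes were. Among signalling genes, Nmi, the partner of IFI35, was at 41.7 ± 4.95 and 68.3 ± 32.9 CPM (SD, n = 3 each) and the receptor kinase gene Jak1 at 344 ± 26.5 and 296 ± 29.7 CPM. Limma adjusted p-values for these were 0.325 and 0.397. Of the genes that induce interferon, Tmem173, which encodes the adaptor STING, was at 13.3 ± 1.92 and 9.11 ± 2.22 CPM, the toll-like receptor adaptor Ticam1 at 22.0 ± 3.21 and 29.3 ± 5.32 CPM and the kinase Tbk1 at 50.2 ± 4.05 and 64.1 ± 14.4 CPM, with adjusted p-values of 0.308, 0.342 and 0.385.

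Of 31 other interferon-stimulated genes tested 22 were higher and 9 lower, with a median log2 difference of 0.24. Over all genes 40.2% were higher and 59.8% lower. In 10 every PEGPH20 library was above every vehicle library and in 4 every one was below, where the shares over all genes were 9.71% and 17.6%. At an unadjusted p under 0.05 in limma 8 were higher and 3 lower, where the shares over all genes were 6.52% and 11.5%. Trim30a, a ubiquitin ligase of the TRIM family, was at 15.4, 17.6 and 22.6 CPM in vehicle and at 28.6, 45.8 and 39.6 CPM in PEGPH20 tumors (log2 difference 0.99, SE 0.23, limma adjusted p = 0.147). Herc6, the mouse ISG15 ligase, was at 4.82, 6.12 and 6.50 against 10.2, 39.6 and 13.7 CPM (1.48, 0.183). In both the groups were apart. Of these 31 genes Ifitm1, described beside Ifitm3, had the lowest log2 difference, -1.41 (SE 0.42, adjusted p = 0.175). Without PEGPH20 replicate 5, 1 of the 31 rose past the threshold, Ifi27l2b (0.62, limma adjusted p = 0.0447), and 1 fell, Ifitm1. The shares over all genes were then 0.948% and 2.03%.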

How the data were processed

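Expression was measured by 3′ mRNA sequencing with the QuantSeq forward kit from 200 ng of total RNA, read over 75 nt, per the labels' protocols. The authors deposited a signal in CPM for 21878 genes, on build GRCm38 per the submitters' processing notes. Aligner, counting tool and any use of molecular identifiers: not given in the sources used here. A row of totals, which names no gene, was left out. All values (100%, tolerance 1e-06) were whole multiples of 1 read, and reads were recovered by division. The depth limits genes with few reads, since 3 reads, the most that a count of 0 allows, are 1.06 to 1.45 CPM (counting error only). Over 11224 genes with at least 60 reads, chi-square per degree of freedom was 2.42 to 35.8 in the 15 library pairs, so no library was a duplicate. Identifiers were matched to GENCODE M21 symbols for 21786 genes and not for 92.

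The main test was limma 3.58.1 (trend option) on log2(CPM + 1) of the 11389 genes that filterByExpr kept (minimum count 10), with Benjamini-Hochberg adjustment over all of them and a two-sided threshold of 0.05. Differences are PEGPH20 minus vehicle, and the pseudocount of 1 understates those of low genes. The fitting procedure was tested on simulated data with no outlying library, so that test does not cover a library like PEGPH20 replicate 5. EdgeR 4.0.16 and DESeq2 1.42.0 on the recovered reads, limma-voom, other scalings, filters and pseudocounts, and leaving out each library (with the same genes tested) were alternatives, run in R 4.3.3. Members, lists and alternatives were chosen with earlier results of these data known. Every member is named. Values in each library are given for the 14 members with the smallest p-values and for Stat2, Irf7, Irf9 and Bst2, and for other members where these show a pattern, chosen after their values were seen. Outside the members the 3 smallest p-values per role are named, except 1 gene that is not reported here, and Ifitm2, Ifi27l2b, Gzma, Ccl5, Jchain, Mzb1, Igkc, Bcl11a, Pacsin1, Ptprc and Siglech were added after their values were seen. Promoters are RefSeq windows nearest the GENCODE gene start, and motifs were searched on both strands.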

Additional observations from a re-analysis of the deposited data

How the results depend on the processing

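No paired analysis was possible because the groups share no replicate number. The count of members past the threshold, 0 with all libraries, was 1 without a filter on low values and with limma-voom, 4 in DESeq2, and 0 to 3 when 1 library was left out (3 without PEGPH20 replicate 5, or 4 in edgeR without it). Over all genes 3 were higher and 6 lower. These counts were 10 and 19 without the filter, 128 and 149 in DESeq2 and 108 and 161 in limma-voom. Leaving out 1 library gave 1 to 108 higher and 0 to 231 lower genes, the highest without PEGPH20 replicate 5, and edgeR without it gave 173 and 248. The lower count was 3 with a pseudocount of 0.1 and 3 with the stricter filter. Pathway genes outside the members past the threshold were 3 in DESeq2, 0 to 2 with 1 library left out and 2 in edgeR without replicate 5. Members higher at an unadjusted p under 0.05 ran from 6 to 18 and lower ones from 0 to 1 with 1 library left out. With 1 library left out, members with all PEGPH20 libraries above vehicle ran from 11 to 20 and below from 2 to 3. Under RLE and upper quartile scaling and in DESeq2 these counts were 10 and 1, and with the stricter filter 9 and 2. The member median stayed between 0.34 and 0.75. The causes were not tested. Scalings moved the median of all genes from -0.09 to -0.0032 under TMM, 0.012 under RLE and -0.0049 under upper quartile scaling.

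Signs changed in 6 members, none past the threshold. Trim25 (-0.05) was 0.048 under TMM, 0.063 under RLE, 0.046 under upper quartile, 0.044 in edgeR, 0.057 in DESeq2, 0.08 in limma-voom, 0.068 in edgeR without PEGPH20 replicate 5, and -0.11 to 0.050 with 1 library left out. Ifit2 (-0.13) was 0.040 in edgeR, 0.072 in DESeq2, 0.074 in limma-voom, 0.27 in edgeR without replicate 5 and -0.57 to 0.20 with 1 library left out (0.01 without vehicle replicate 3). With 1 library left out Isg20 ran from -0.18 to 0.19, Rsad2 from -0.46 to 0.11, Xaf1 from -0.15 to 0.71 (-0.075 in edgeR without PEGPH20 replicate 5) and Samd9l from -0.084 to 0.43.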
